A study of Mus musculus with 34 samples.

Results

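Open chromatin was compared between Flk1-positive and unsorted mouse embryonic fibroblasts on day 7 of reprogramming with Etv2, from 2 samples in each group out of 34 samples in 17 groups. Both groups came from iHA-Etv2 fibroblasts, which carry a doxycycline-inducible, HA-tagged Etv2, and both had received doxycycline. The first group was labelled Flk1 positive. The second was labelled FALSE for Flk1 positivity, as were the uninduced fibroblasts, which may mean either not selected or Flk1 negative. It is called unsorted here without settling that. How the cells were separated, and which promoter drives the inducing transactivator, is not given in the sources used here. The assay was ATAC-seq, which uses a transposase to insert sequencing adapters into accessible DNA. Each group had 1 deposited list of summits, the base of highest signal within a peak, made from its 2 samples together. The regions described are therefore the 29520 summits of the Flk1-positive list and the 18418 of the unsorted list on chromosomes 1 to 19 and X. A summit was shared when the other list had one within 250 bp, and otherwise belonged to the Flk1-positive list only or to the unsorted list only. The 2 lists were also compared after keeping equal numbers of their highest-scoring summits. Lists of the same fibroblasts without doxycycline (day 0) and on days 1 and 2, and of embryoid bodies, served only to look positions up. The embryoid bodies were labelled 12 h and were induced and Flk1 positive, induced and labelled FALSE for Flk1, or uninduced.

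Etv2 is an ETS-family transcription factor that starts the blood and vessel programmes of the embryo, and its forced expression turns fibroblasts toward endothelial cells. Flk1 is the product of Kdr, the main receptor for vascular endothelial growth factor on endothelial cells and their progenitors, and is a surface marker by which such cells are isolated. ETS factors bind DNA around a GGAA core, and their sites lie in the control regions of many endothelial genes, including those of junction proteins and growth factor receptors.

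A few promoters with a summit in the Flk1-positive list and none in the unsorted list are shown first, because they belong to the gate gene and to other surface proteins of endothelial cells. Each line gives the 250 bases before the transcription start, read 5′ to 3′ on the gene's strand, from RefSeq on GRCm38.p6 (mm10). Capitals mark the letters GGAA and, for a core on the other strand, TTCC. Kdr lies at chr5:75978456-75978705 on the minus strand. Adgrf5, an adhesion receptor of endothelial cells, lies at chr17:43360181-43360430 on the plus strand. Clec14a, an endothelial lectin-like receptor, lies at chr12:58269259-58269508 on the minus strand. Cd34, a sialomucin of endothelial and blood progenitor cells, lies at chr1:194938571-194938820 on the plus strand. Calcrl, the receptor that with Ramp2 binds adrenomedullin, lies at chr2:84425267-84425516 on the minus strand.
Kdr: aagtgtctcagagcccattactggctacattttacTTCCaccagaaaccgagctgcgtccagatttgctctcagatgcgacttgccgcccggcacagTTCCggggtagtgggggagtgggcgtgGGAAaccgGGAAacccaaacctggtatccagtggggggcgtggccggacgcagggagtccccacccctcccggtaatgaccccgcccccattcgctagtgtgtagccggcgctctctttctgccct
Adgrf5: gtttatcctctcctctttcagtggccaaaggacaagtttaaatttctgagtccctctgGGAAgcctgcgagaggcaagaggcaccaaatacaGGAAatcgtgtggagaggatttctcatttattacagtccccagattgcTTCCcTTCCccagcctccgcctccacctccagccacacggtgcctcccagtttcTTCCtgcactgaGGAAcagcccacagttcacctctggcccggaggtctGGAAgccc
Clec14a: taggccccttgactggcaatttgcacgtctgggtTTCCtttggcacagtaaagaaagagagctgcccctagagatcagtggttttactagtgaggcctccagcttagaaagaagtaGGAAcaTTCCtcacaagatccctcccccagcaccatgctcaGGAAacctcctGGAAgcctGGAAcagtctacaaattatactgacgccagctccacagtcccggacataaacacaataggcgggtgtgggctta
Cd34: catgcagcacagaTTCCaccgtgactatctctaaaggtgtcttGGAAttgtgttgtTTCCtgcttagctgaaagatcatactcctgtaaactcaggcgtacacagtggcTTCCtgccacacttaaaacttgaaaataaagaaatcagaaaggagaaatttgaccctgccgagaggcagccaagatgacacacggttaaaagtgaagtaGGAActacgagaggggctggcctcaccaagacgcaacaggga
Calcrl: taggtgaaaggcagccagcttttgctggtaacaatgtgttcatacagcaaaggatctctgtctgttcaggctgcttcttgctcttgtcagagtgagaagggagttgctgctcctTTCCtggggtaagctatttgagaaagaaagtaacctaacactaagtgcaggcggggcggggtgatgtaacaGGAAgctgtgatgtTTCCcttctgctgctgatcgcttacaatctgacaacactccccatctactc
The core letters occurred 4 times in the Kdr stretch, 7 times in Adgrf5, 6 times in Clec14a, 5 times in Cd34 and 3 times in Calcrl. In the endothelial promoters of this kind that are not shown, they occurred 4 times in Nrp1, 2 times in Flt4 and 2 times in Mef2c. Across all 32619 promoter windows the median was 3, and 93.4% held the core at least once, so its presence alone set none of these promoters apart. The summit of the Flk1-positive list lay 148 bp before the start in Adgrf5, 138 bp before it in Clec14a, 38 bp before it in Cd34, 33 bp before it in Calcrl and 105 bp after it in Kdr. The Adgrf5 summit was also called on day 1 and day 2 of induction and in induced embryoid bodies, and was absent from uninduced fibroblasts and uninduced embryoid bodies. The Clec14a promoter had no summit in uninduced or day 1 fibroblasts or in induced or uninduced embryoid bodies. Those of Kdr, Cd34 and Calcrl already had a summit before induction.

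The Flk1-positive list was the longer. Of its 29520 summits, 16142 had no partner in the unsorted list (54.7%, exact Clopper-Pearson 95% interval 54.1 to 55.3), and of the 18418 unsorted summits 4778 had none in the Flk1-positive list (25.9%, 25.3 to 26.6). The shared class held 13378 summits of the Flk1-positive list and 13640 of the unsorted list. With 1 list a group there is no replicate error and no p-value, and these intervals cover counting error only. Keeping the 18418 highest-scoring summits of each list removed 11102 summits, with a score of at most 5.43, from the Flk1-positive list. The classes were then of like size, with 7517 Flk1-positive-only (40.8%) and 7108 unsorted-only summits (38.6%). The plot of summits by list shows both comparisons. In these bulk lists, fewer cells with a site open and less signal per cell cannot be told apart. Read depth was not analysed here, so list length and depth cannot be told apart either.

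**Figure D1:**
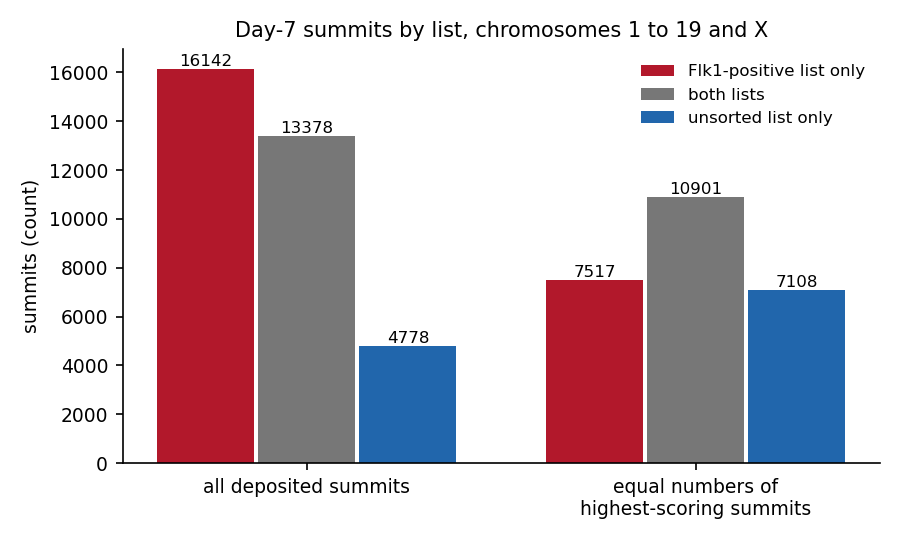
Number of day-7 summits in the Flk1-positive list only (red), in both lists (grey, counted in the Flk1-positive list) and in the unsorted list only (blue), for all deposited summits and for equal numbers of highest-scoring summits. The Flk1-positive-only class holds 16142 summits against 4778 unsorted-only in the full lists, and 7517 against 7108 at equal numbers.

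Both one-list classes came from the lower parts of their lists. The deposited score, the negative log10 of the q value from peak calling, had a median of 5.43 for Flk1-positive-only and 3.99 for unsorted-only summits. Their median rank stood at percentile 36.1 for Flk1-positive-only and 32.7 for unsorted-only summits of their own list, against 71.6 for shared summits in the Flk1-positive list and 57.4 in the unsorted list. The cutoff of 250 bp fell among populated distances. Between 200 and 250 bp from a partner lay 884 Flk1-positive and 956 unsorted summits, and between 250 and 300 bp lay 636 and 638.

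The classes differed in where they lay. Summits outside genes and over 1 kb from any gene end made up 37.1% of the Flk1-positive-only class (36.3 to 37.8) and 55.4% of the unsorted-only class (53.9 to 56.8). Within a gene lay 55.2% of Flk1-positive-only summits and 40.2% of unsorted-only summits. The share within 1 kb of a gene end was 26.9% for Flk1-positive-only (26.3 to 27.6) and 18.6% for unsorted-only summits (17.5 to 19.7), against 53.0% of shared summits. That last order turned when partners had to lie within 100 bp, with 31.1% for Flk1-positive-only and 32.4% for unsorted-only summits. Peaks with several summits held 27.8% of the Flk1-positive-only and 50.7% of the unsorted-only class.

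Flk1-positive-only sites were called before Etv2 induction more often than unsorted-only sites. A summit in uninduced fibroblasts lay within 250 bp of 66.8% of them (66.1 to 67.5), against 31.4% of unsorted-only summits (30.1 to 32.7) and 85.7% of shared summits. On day 1 the shares were 71.9% of Flk1-positive-only and 38.7% of unsorted-only summits. On day 2 they were 42.6% of Flk1-positive-only and 39.6% of unsorted-only summits, and at equal numbers 56.8% and 46.9%. The lists looked up shorten with time, from 62028 summits on day 0 to 50015 on day 1 and 26217 on day 2, and the part of that in these shares was not tested. All 3 earlier lists held 5709 Flk1-positive-only positions (35.4%) and 654 unsorted-only positions (13.7%). A further 3876 Flk1-positive-only positions (24.0%) and 344 unsorted-only positions (7.2%) were called on days 0 and 1 and not on day 2. None of the 3 held 18.5% of Flk1-positive-only and 38.3% of unsorted-only summits. With equal numbers of summits the day 0 shares were 75.7% for Flk1-positive-only and 40.7% for unsorted-only, and with matching within 100 bp 49.0% for Flk1-positive-only and 26.9% for unsorted-only. The plot of earlier days gives all 3 classes.

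**Figure D2:**
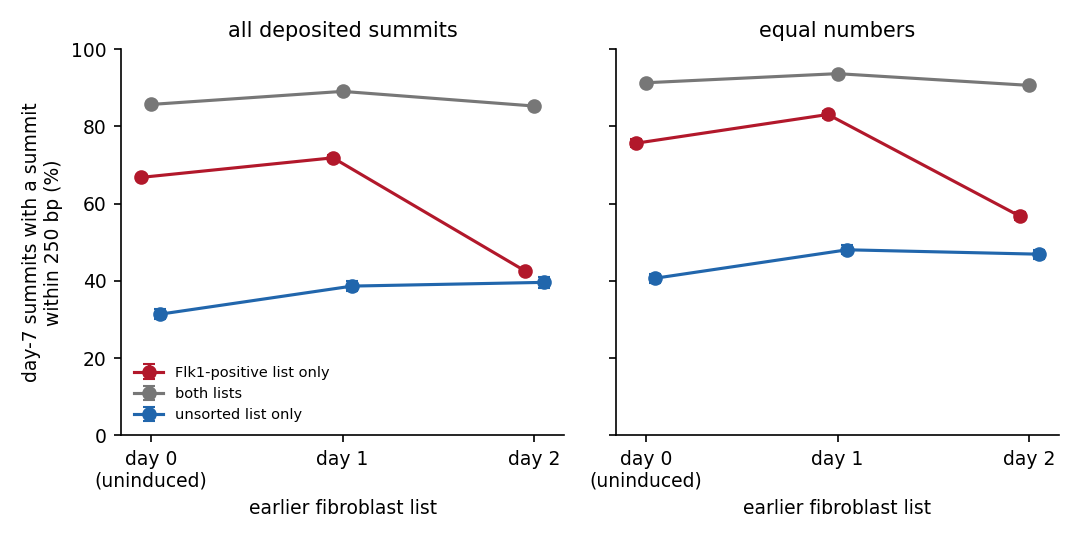
Percentage of day-7 summits with a summit within 250 bp in the fibroblast lists of day 0, day 1 and day 2 (x axis), for the Flk1-positive-only (red), shared (grey) and unsorted-only (blue) classes; bars are exact 95% intervals of counting error. Flk1-positive-only summits lie above unsorted-only ones on days 0, 1 and 2, at 66.8% against 31.4% on day 0 and 42.6% against 39.6% on day 2 in the full lists. At equal numbers the day 2 values are 56.8% against 46.9%.

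Summits absent from uninduced fibroblasts numbered 5357 in the Flk1-positive-only class, 3278 in the unsorted-only class and 1913 in the shared class. Their earlier history differed. On day 1, 37.7% of the Flk1-positive-only ones (36.4 to 39.0) and 25.9% of the unsorted-only ones (24.4 to 27.4) were called. On day 2 the order was the other way, with 16.8% of the Flk1-positive-only (15.8 to 17.8) and 31.1% of the unsorted-only ones (29.5 to 32.7). In neither list were 55.6% of Flk1-positive-only and 55.8% of unsorted-only ones, but at equal numbers the shares were 41.8% for Flk1-positive-only (39.6 to 44.1) and 51.4% for unsorted-only (49.9 to 53.0). The shared ones were called more often on both days, 55.6% on day 1 and 54.1% on day 2.

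Embryoid bodies offered a readout of Etv2 induction in other cells, which took no part in choosing the classes. Of the 5357 Flk1-positive-only summits absent from uninduced fibroblasts, 26.8% had a summit in induced embryoid bodies and 18.6% in uninduced ones. For the 3278 unsorted-only ones the shares were 24.9% in induced and 23.3% in uninduced embryoid bodies. Counting those found in only one of both lists, 658 Flk1-positive-only summits were in the induced and 223 in the uninduced list, which puts 74.7% on the induced side (71.7 to 77.5). The unsorted-only class had 275 in the induced and 223 in the uninduced list, or 55.2% (50.7 to 59.6). Shared summits stood at 56.3% (51.3 to 61.2).

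The Flk1-positive-only share was also above the levels that the lists give by themselves. Over all embryoid body summits found in only one of both lists, 39.7% were in the induced one. The shared and unsorted-only classes also stood above that level, at 56.3% and 55.2%. Of day 1 summits absent from uninduced fibroblasts 64.2% were on the induced side (61.9 to 66.4), and of day 2 ones 57.7%. Away from gene ends the Flk1-positive-only share was 78.1% (74.9 to 81.0), against 54.0% for unsorted-only (48.9 to 59.1). Equal numbers of summits gave 78.2% for Flk1-positive-only and 53.7% for unsorted-only. Among summits already present in uninduced fibroblasts the classes did not separate, with 59.7% for Flk1-positive-only (56.6 to 62.6) and 60.9% for unsorted-only (55.3 to 66.3). Flk1-positive embryoid bodies in place of the induced ones gave 66.6% for Flk1-positive-only and 49.2% for unsorted-only summits. The gap narrowed to 62.5% for Flk1-positive-only against 56.3% for unsorted-only when partners had to lie within 100 bp. It widened when absence meant no summit within 1 kb, a setting chosen after seeing the data. Then 362 Flk1-positive-only summits were in the induced and 62 in the uninduced list (85.4%, 81.6 to 88.6), and 72 and 70 unsorted-only ones (50.7%, 42.2 to 59.2).

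**Figure D3:**
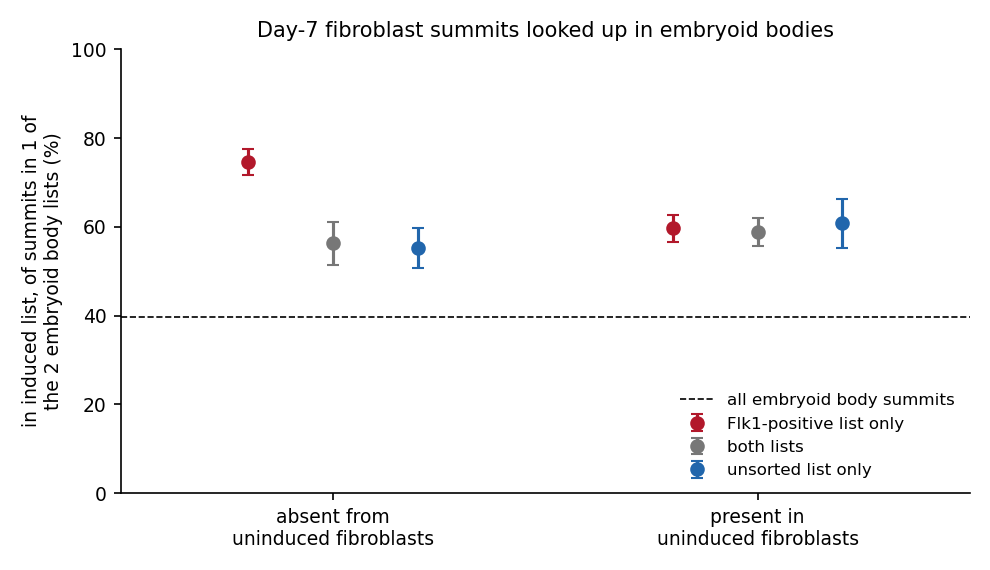
Of day-7 fibroblast summits found in only one of the induced and uninduced embryoid body lists, the percentage found in the induced one, for the Flk1-positive-only (red), shared (grey) and unsorted-only (blue) classes, split by presence in uninduced fibroblasts; bars are exact 95% intervals of counting error and the dashed line is all embryoid body summits (39.7%). The Flk1-positive-only class absent from uninduced fibroblasts lies at 74.7%, above the other 2 classes at 56.3% and 55.2%, whereas all 3 classes lie between 58.8% and 60.9% among summits present before induction.

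The 658 Flk1-positive-only summits found in induced and not in uninduced embryoid bodies were mostly distal. Only 92 lay within 1 kb of a gene end and 329 lay inside a gene. In fibroblasts 51.2% of them had been called on day 1 and 21.1% on day 2, and in Flk1-positive embryoid bodies 55.3% were present. A summit of uninduced fibroblasts lay over 250 bp but within 1 kb of 235 of the 658, and one of uninduced embryoid bodies of 240. At least 1 of them lay within 50 kb of 4.54% of the 21631 protein-coding genes. Among endothelial surface and junction genes it was 6 of 40 (Kdr, Flt1, Cdh5, Adgrf5, Nrp2 and Ecscr), and among endothelial transcription factors 5 of 24 (Erg, Etv6, Sox7, Foxc2 and Bcl6b). It was 2 of 12 skeletal muscle, 2 of 24 AP-1 and TEAD-YAP, 2 of 26 haematopoietic, 2 of 46 fibroblast and 1 of 24 vessel signalling genes, and 0 in the other 6 lists. These are counts of genes, and neighbours can share a summit. Myf5 and Myf6 of the skeletal muscle list did, as did Lyl1 of the haematopoietic and Ier2 of the AP-1 and TEAD-YAP list. The unsorted-only counterpart, near 2.05% of all genes, lay near 0 genes of both lists. Positions called in uninduced and not in induced embryoid bodies were near 1.93% of all genes, 2 of the 40 surface genes and 1 of the 24 factors. With equal numbers of summits, 3 surface genes (Flt1, Adgrf5 and Ecscr) and 1 factor (Etv6) remained in the first count, beside 1.98% of all genes. Genes named from here on for such a summit were chosen after their values were seen.

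At Kdr (chr5:75932827-75979072) the Flk1-positive list had 3 summits within 50 kb and the unsorted list had 0. The first, with a score of 7.42, lay 9964 bp below the gene's lower end. The second, with a score of 3.06, lay inside the gene at position 75970231. The third, with a score of 2.53, lay inside the gene 722 bp from its upper end, the end near which transcription starts. Only the third had a partner in uninduced fibroblasts, and all 3 had one on day 1 and none on day 2. The second was also called in induced and Flk1-positive embryoid bodies, and the nearest summit lay 8074 bp away in uninduced fibroblasts and 8120 bp away in uninduced embryoid bodies. Within 50 kb of Kdr, Flk1-positive embryoid bodies had 7 summits, induced ones 8 and uninduced ones 3. Fibroblasts had 4 there on day 0, before induction, 5 on day 1 and 1 on day 2. Among the day-7 lists, summits at Kdr, the gene of the selected protein, were thus in the one labelled Flk1 positive. Only 1 of those 3 was among the equal numbers of highest-scoring summits.

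Flt1, the receptor that shares ligands with Kdr, had 4 Flk1-positive summits and 0 unsorted ones. The one at position 147725659, inside the gene 779 bp from its upper end and with a score of 7.42, was absent from uninduced fibroblasts and uninduced embryoid bodies and present on days 1 and 2 and in induced embryoid bodies. This absence is one of the 250 bp limit, since uninduced fibroblasts had a summit 256 bp away and uninduced embryoid bodies one 455 bp away. Cdh5, the adhesion protein VE-cadherin of endothelial junctions, had 6 Flk1-positive and 2 unsorted summits. Its summit of this pattern lay 26 bp inside the lower end of the gene with a score of 5.35, and was called on day 1 and not on day 2. The nearest summit lay 5656 bp away in uninduced fibroblasts and 2350 bp away in uninduced embryoid bodies. Its score was just under the 5.43 kept at equal numbers. At Adgrf5, with 3 Flk1-positive and 1 unsorted summit, the promoter summit shown above had a score of 15.1. Nrp2, a co-receptor for vascular growth factors, and Ecscr, an endothelial surface protein, each had 1 such summit, with scores of 2.32 and 8.12.

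The transcription factors showed the same pattern at distal positions. Erg, an ETS factor that maintains endothelial identity, had 2 Flk1-positive and 1 unsorted summit, and the induced-type summit lay 36976 bp below the gene with a score of 4.81. Etv6, an ETS repressor needed for blood formation, had 9 Flk1-positive and 3 unsorted summits, and its induced-type summit at position 134152173 inside the gene had a score of 8.12. Sox7, a factor of early endothelial and blood precursors, had 3 Flk1-positive and 0 unsorted summits, with the induced-type one 7224 bp above the gene (score 5.39). At Foxc2, a factor of vessel and lymphatic development, it lay 2654 bp below the gene (score 4.04), and at Bcl6b it lay 10202 bp above (score 5.43). Of these factor summits only that of Etv6 was among the equal numbers of highest-scoring summits. That of Bcl6b tied with the lowest score kept, and such ties were cut by chromosome and position. Among blood genes, Lmo2 and Lyl1, which act together in the transcription complex of early blood cells, each had 1. The Lyl1 summit, at position 84660304 with a score of 3.47, lay below the gene (84701423-84704716). It was nearer to Ier2 (84661331-84662852), a gene of the AP-1 and TEAD-YAP list. The Lmo2 summit lay inside the gene at position 103970140 with a score of 7.42 and, like that of Flt1, had a summit nearby in uninduced fibroblasts (296 bp) and uninduced embryoid bodies (381 bp). Acvrl1, a BMP-family receptor of endothelium, had 1 at 28920 bp above the gene, with a score of 2.53. Of these 14 summits at 14 genes, 11 had been called on day 1, 3 on day 2 and 12 in Flk1-positive embryoid bodies. At 11 of the genes no summit lay within 1 kb in uninduced fibroblasts or uninduced embryoid bodies, the exceptions being Flt1, Lmo2 and Acvrl1. The map of 4 of these loci shows the summits of all 8 lists.

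**Figure D4:**
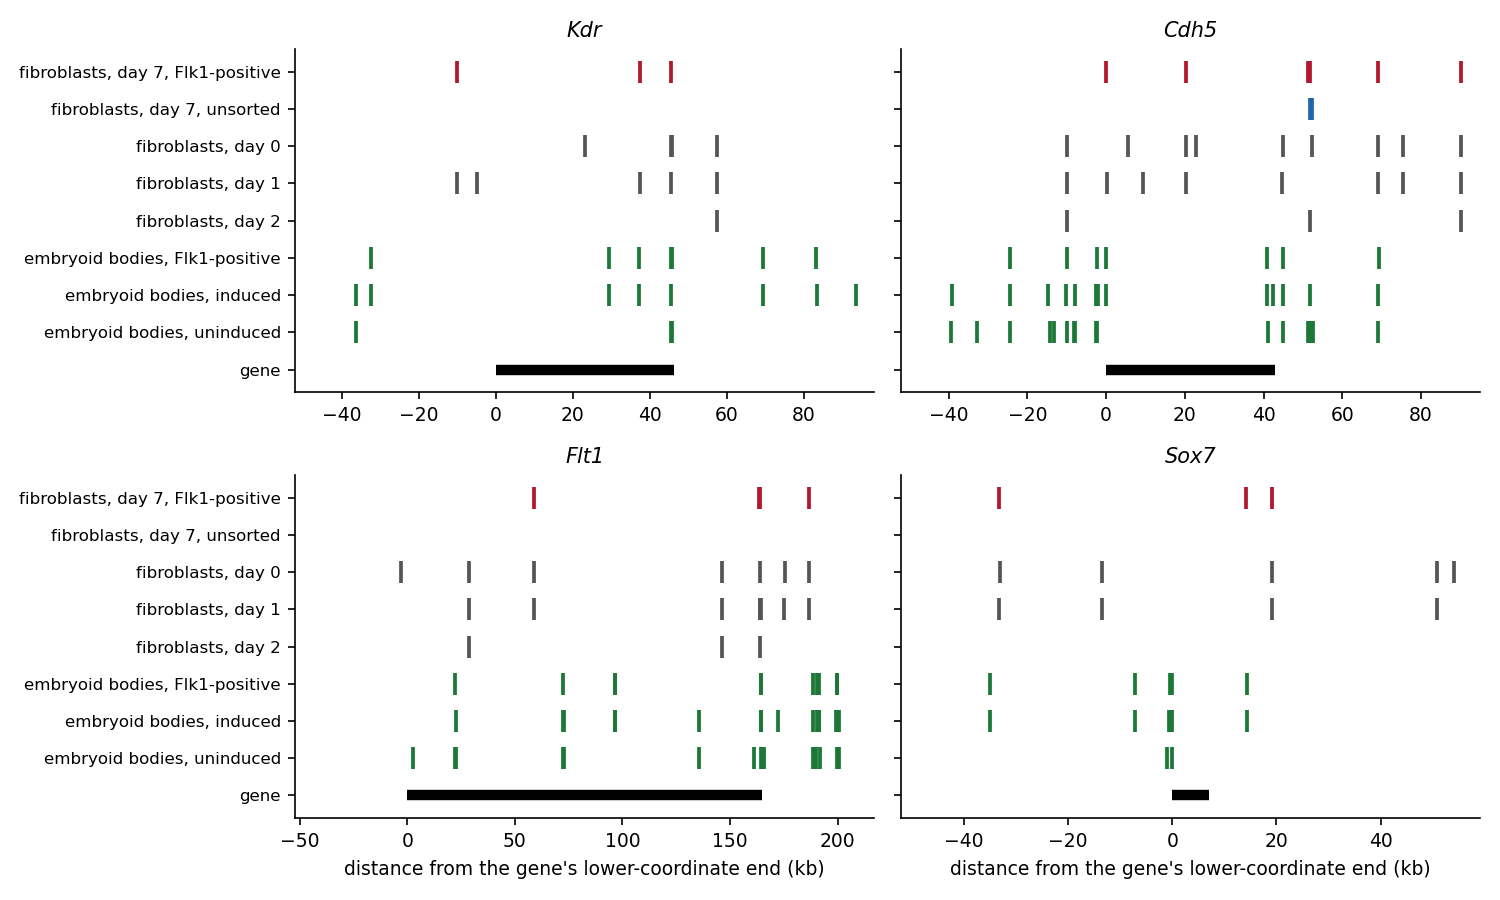
Summits (ticks) around Kdr, Cdh5, Flt1 and Sox7 in 8 lists, by distance in kb from the gene's end of lower coordinate; the black bar is the gene. In the Flk1-positive day-7 row (red) Kdr and Sox7 have 3 summits each and Flt1 4, a pair of them drawn as one, and the unsorted day-7 row (blue) is empty at all of these; grey rows are fibroblasts on day 0, 1 and 2 and green rows are embryoid bodies.

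Counted over whole gene neighbourhoods, nearly every list of genes had more Flk1-positive-only than unsorted-only summits, and that list was also the longer. Of 17749 protein-coding genes with a summit within 50 kb, 69.6% had more Flk1-positive-only and 9.29% more unsorted-only summits. The endothelial surface and junction list had 30 genes with more and 3 with fewer among its 36 genes with a summit, and 4 had none. The endothelial transcription factors had 21 with more and 0 with fewer of 23, vessel signalling genes 20 and 0 of 23, and haematopoietic genes 21 and 1 of 22. Fibroblast genes had 31 and 2 of 40, and AP-1 and TEAD-YAP genes, which respond to growth signals and to cell shape, 20 and 1 of 23. The share with more was 83.3% for endothelial surface (67.2 to 93.6), 91.3% for endothelial factor (72.0 to 98.9) and 77.5% for fibroblast genes (61.5 to 89.2). The intervals of the surface and fibroblast lists include the 69.6% of all genes.

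With equal numbers of summits the background was nearer balance, with more Flk1-positive-only summits at 41.3% of genes and fewer at 26.4%. The haematopoietic list then had 15 with more and 4 with fewer of 22, and the endothelial surface list 19 and 4 of 31. Fibroblast genes had 21 and 6 of 38, and endothelial transcription factors 11 and 3 of 21. These 4 lists had a median difference of 1 summit per gene, as had the smooth muscle and pericyte and the epithelial lists, against 0 over all genes. The share with more was 61.3% for endothelial surface (42.2 to 78.2), 52.4% for endothelial factor (29.8 to 74.3) and 55.3% for fibroblast genes (38.3 to 71.4). The intervals of the factor and fibroblast lists include the 41.3% of all genes. Vessel signalling genes (9 and 5 of 20) and AP-1 and TEAD-YAP genes (9 and 6 of 23) stood near the background. Lists of other cell types were mixed at equal numbers. Smooth muscle and pericyte genes had 6 with more and 2 with fewer of 11, epithelial genes 5 and 0 of 9, macrophage genes 4 and 3 of 9, neural genes 2 and 3 of 7, and skeletal muscle genes 1 and 3 of 6. Cell cycle genes had 7 and 6 of 19 and housekeeping genes 9 and 4 of 19. The part of other cells in these differences was not tested.

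**Figure D5:**
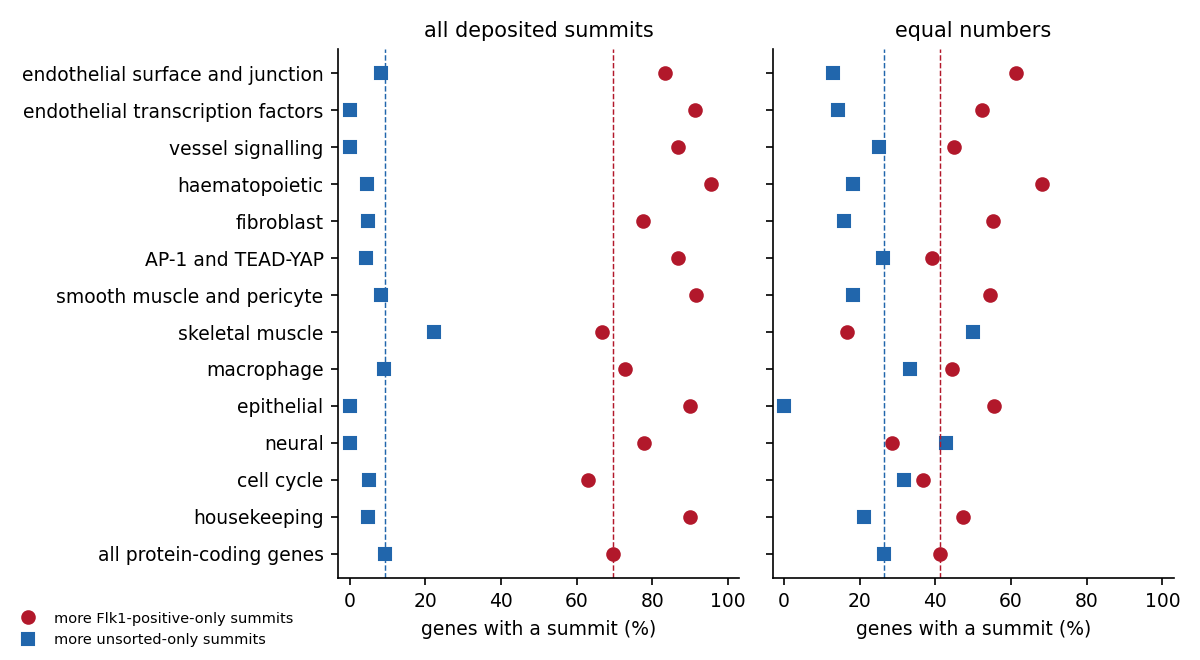
Percentage of the genes of each list with a summit within 50 kb that had more Flk1-positive-only summits (red circles) or more unsorted-only summits (blue squares), for all deposited summits and for equal numbers; dashed lines are all protein-coding genes. At equal numbers the background is 41.3% with more and 26.4% with fewer. The haematopoietic (68.2%), endothelial surface (61.3%), epithelial (55.6%), fibroblast (55.3%), smooth muscle and pericyte (54.5%) and endothelial factor (52.4%) lists lie furthest to the right of it. Housekeeping (47.4%), vessel signalling (45.0%) and macrophage (44.4%) genes also lie to its right.

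Among endothelial surface genes, Egfl7, a secreted vessel protein, had 4 Flk1-positive and 0 unsorted summits, and all 4 lay above the gene and had a partner in uninduced fibroblasts. Flt4, the receptor of lymphatic growth factor, had 3 Flk1-positive and 0 unsorted summits, of which 1 had a partner before induction. Plvap, a protein of endothelial diaphragms, had 8 Flk1-positive and 4 unsorted summits. Tek, the angiopoietin receptor, went the other way with 1 Flk1-positive and 2 unsorted summits, none of them within 250 bp of another. Pecam1, with 1 Flk1-positive and 2 unsorted summits, and Stab2, with 0 and 1, did so too. Both had 1 unsorted-only and 0 Flk1-positive-only summits, in the full lists and at equal numbers. Eng, a co-receptor of the TGF-beta family, had 5 Flk1-positive and 3 unsorted summits but 1 more unsorted-only summit at equal numbers. Across the surface list, 20 of 65 Flk1-positive-only summits were absent from uninduced fibroblasts (30.8%, 19.9 to 43.4), beside 33.2% of the whole class. At equal numbers it was 9 of 29 (31.0%, 15.3 to 50.8), beside 24.3%. Both intervals include the share of the whole class.

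Mef2c had the largest difference among the endothelial factors at equal numbers, 4 Flk1-positive-only and 0 unsorted-only summits. In the full lists Mef2c had 6 Flk1-positive and 0 unsorted summits, and 5 of the 6 had a partner before induction. Hey2, a Notch target of arteries, had 4 Flk1-positive and 2 unsorted summits. Etv2 itself (chr7:30633616-30636509) had 5 Flk1-positive and 2 unsorted summits within 50 kb and none inside the gene. Its nearest Flk1-positive-only summit lay 2757 bp above the gene with a score of 8.12, was absent from all 3 earlier fibroblast lists and was present in all 3 embryoid body lists. Ets2 and Foxc1 had 2 Flk1-positive and 2 unsorted summits each, and together with Klf4 they had 1 more unsorted-only than Flk1-positive-only summit at equal numbers, the lowest difference in the list. Over the factor list, 21 of 57 Flk1-positive-only summits were absent from uninduced fibroblasts (36.8%, 24.4 to 50.7), an interval that includes the 33.2% of the whole class. At equal numbers it was 8 of 25 (32.0%, 14.9 to 53.5), an interval that includes 24.3%.

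Vessel signalling genes gave a split picture. Vegfb, a ligand of Flt1, had 11 Flk1-positive and 2 unsorted summits, and 8 of its 9 Flk1-positive-only summits had a partner before induction. Angpt1, the ligand of Tek, had 6 Flk1-positive and 0 unsorted summits. Its highest-scoring one (19.9) was called in none of the earlier fibroblast lists. Notch4, an endothelial Notch receptor, had 7 Flk1-positive and 3 unsorted summits, and Smad6, an inhibitor of BMP signals, had 3 and 0. Jag1, a Notch ligand, had 4 in each list, and Id3, a BMP target, had 3 in each.

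Haematopoietic genes were led by Mecom, a zinc-finger factor of blood stem cells, with 13 Flk1-positive and 3 unsorted summits, and 7 of its 10 Flk1-positive-only summits had a partner before induction. Itga2b, an integrin of early blood cells and platelets, had 7 Flk1-positive and 1 unsorted summit, and all 5 of its Flk1-positive-only summits had a partner before induction. Epor, the erythropoietin receptor, had 7 Flk1-positive and 4 unsorted summits, and Nfe2, a factor of the red cell and platelet lines, had 6 and 3. Vav1 had 8 Flk1-positive and 5 unsorted summits and Ikzf1 had 4 in each, and both had 1 more unsorted-only summit at equal numbers. Across the blood list, 13 of 56 Flk1-positive-only summits were absent from uninduced fibroblasts (23.2%, 12.98 to 36.4), an interval that includes the 33.2% of the whole class. At equal numbers 2 of 29 were absent (6.90%, 0.846 to 22.8), an interval below the 24.3% of the whole class in that setting. Vessel signalling genes had 14 of 62 absent in the full lists (22.6%, 12.9 to 35.0). At equal numbers they had 1 of 24 (4.17%, 0.105 to 21.1).

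Several fibroblast genes had summits in the Flk1-positive list that the unsorted list lacked. Col1a2, a chain of type I collagen, had 7 Flk1-positive and 0 unsorted summits, and 5 of the 7 had a partner in uninduced fibroblasts. Postn, a matrix protein, had 4 Flk1-positive and 1 unsorted summit, and all 3 of its Flk1-positive-only summits had such a partner. Cdh11, a cadherin of mesenchymal cells, had 7 Flk1-positive and 1 unsorted summit, and Cdh2, N-cadherin, had 8 and 3. Timp2, an inhibitor of matrix proteases, had 4 Flk1-positive and 5 unsorted summits, and Zeb1, a mesenchymal repressor, had 4 and 3 with 2 more unsorted-only at equal numbers. Over the list, 23 of 86 Flk1-positive-only summits were absent before induction (26.7%, 17.8 to 37.4), an interval that also includes the 33.2% of the whole class. At equal numbers it was 7 of 41 (17.1%, 7.15 to 32.1), an interval that includes 24.3%.

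In the AP-1 and TEAD-YAP list Ccn1, a matrix protein and YAP target, had 9 Flk1-positive and 0 unsorted summits, 7 of them with a partner before induction. Amotl2 had 6 Flk1-positive and 2 unsorted summits, and Tead4 had 4 and 3. Ankrd1, another YAP target, had 4 Flk1-positive and 2 unsorted summits. The AP-1 subunits Fosl1, with 9 Flk1-positive and 5 unsorted summits, and Jun, with 6 and 4, had 2 more unsorted-only summits each at equal numbers. Gapdh, a glycolytic gene often used as a standard, had 8 Flk1-positive and 7 unsorted summits.

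Promoters called in the Flk1-positive list alone included those of endothelial surface genes and of other lists. Of 26794 genes with a promoter window in the RefSeq table, 9.76% had a summit within 250 bp of it in the Flk1-positive list and none in the unsorted list. Of the 24 endothelial surface genes in that table there were 7, Adgrf5, Calcrl, Cd34, Clec14a, Flt4, Kdr and Nrp1, with 1 called in both lists, 0 in the unsorted list alone and 16 in neither. The endothelial transcription factors had 1 of 14, Mef2c, with 8 in both lists. Fibroblast genes also had 7, of 26 (Col1a2, Fbn1, Msx1, Postn, Snai1, Sparc and Tbx18), and Timp2 was called in the unsorted list alone. Smooth muscle and pericyte genes had 3 of 9 (Acta2, Kcnj8 and Notch3), haematopoietic genes 4 of 21 (Runx1, Cbfa2t3, Cd44 and Zfpm1) and cell cycle genes 3 of 17, and housekeeping genes had 0 of 16 with 14 in both lists. At equal numbers, beside 5.42% of all genes, fibroblast genes had 6 of 26 and the surface list 4 of 24 (Adgrf5, Calcrl, Cd34 and Clec14a). Cell cycle genes then had 3 of 17, haematopoietic genes 3 of 21 and smooth muscle and pericyte genes 1 of 9.

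The letters of a longer ETS motif, CNGGAAGT on either strand, occurred in 15.2% of the 3053 promoter windows of 300 bases called in the Flk1-positive list alone (13.9 to 16.5). They occurred in 9.29% of the 280 windows called in the unsorted list alone (6.16 to 13.3), in 15.4% of windows called in both, in 6.95% of windows called in neither and in 9.59% of all windows. None of the 8 endothelial promoters called in the Flk1-positive list alone held these letters, the AP-1 letters TGANTCA or the GATA letters AGATAA in their window. TGANTCA occurred in 5.70% of windows called in the Flk1-positive list alone, 2.86% in the unsorted list alone and 7.85% of all. AGATAA occurred in 6.39% of windows called in the Flk1-positive list alone, 5.36% in the unsorted list alone and 11.2% of all. A level above all windows was not particular to the ETS letters. The CTCF letters AGGGGGC occurred in 15.1% of windows called in the Flk1-positive list alone, 22.1% in the unsorted list alone and 10.7% of all. For the KLF letters GGGNGTGG the shares were 21.6%, 25.0% and 17.7%, in the same order. Median GC content was 60% in windows called in the Flk1-positive list alone, 62.7% in the unsorted list alone and 53.0% over all windows, and its part in these shares was not tested. A window called in the Flk1-positive list alone already had a summit in uninduced fibroblasts in 92.9% of cases, against 75.4% for the unsorted list alone and 98.8% for both. At equal numbers the shares were 94.4% for the Flk1-positive list alone and 88.9% for the unsorted list alone.

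The highest-scoring one-list summits mostly sat close to a partner. Of the 5 highest in the Flk1-positive-only class, 4 lay 256 to 354 bp from an unsorted summit. Their nearest genes were Alkbh8 (298728 bp away), Gm15319 (7901 bp), Aadac (5476 bp) and Brinp3 (141245 bp). The exception lay 32 bp below Pacrgl at chr5:48372360-48372360, with a score of 72.0 and its nearest unsorted summit 265811 bp away. It was called in all 3 earlier fibroblast lists and in induced and uninduced embryoid bodies, and Pacrgl had 5 Flk1-positive and 0 unsorted summits within 50 kb. All 5 of the highest in the unsorted-only class lay 278 to 409 bp from a Flk1-positive summit. Their nearest genes were Alkbh8, 311949 to 331374 bp away, and Col19a1, 24593 to 25579 bp away. The summits assigned to Alkbh8 in both classes lay at chr9:3000001-3100000, which held 100 Flk1-positive and 115 unsorted summits. Bins of 100 kb with at least 20 summits in either list, 21 in number, held 0.923% of Flk1-positive-only summits and 6.51% of unsorted-only summits.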

How the data were processed

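Summit lists from ATAC-seq of 8 groups of 2 samples were used. The submitters' processing notes name the mm10 build and the tools Bowtie2 2.2.4, MACS2 and HOMER. The deposited score is −log10 of the q value given by the peak caller, and every score was above 1.30 (q of 0.05). Both replicates of a group name the same list, so how they were combined is not given and samples were not compared one by one. A score grows with depth, which was not analysed here, so scores were ranked only within a list. Trimming, duplicate and mitochondrial reads, the transposase shift and blacklists are not given in the sources used here.

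Summits on chromosomes 1 to 19 and X were matched within 250 bp with Python 3.11.15, numpy 2.4.6, pandas 2.3.3 and scipy 1.17.1, and figures were drawn with matplotlib 3.10.9. The matching was tested on simulated positions. Gene intervals and promoter windows (250 bases before to 50 after a start) came from RefSeq on GRCm38.p6, and gene ends were used because the gene table gives no strand. All 285 genes of the 13 lists were found, and 195 had a promoter window. Named genes were Kdr, Etv2, in each of 6 lists the 4 highest and 2 lowest by Flk1-positive-only minus unsorted-only summits at equal numbers, and the genes nearest to the 5 highest-scoring summits of each one-list class. The classes, gene lists and rules were chosen with earlier results of these data known. Alternatives were equal numbers of summits, other distances and windows, a score of at least 10, 1 summit per peak and the removal of dense bins.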

Additional observations from a re-analysis of the deposited data

How the results depend on the processing

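No paired analysis was possible because both replicates of each group share 1 list, and for the same reason no replicate could be left out. The planned motif counts in windows around summits were not run, since no genome was used here, and promoter windows took their place, a choice made after seeing the data, as were the removal of dense bins, the GGAA count, absence within 1 kb and the promoter calls at equal numbers. No alternative turned the order of Flk1-positive-only over unsorted-only shares in uninduced fibroblasts or in induced embryoid bodies, and the gene-end order turned at 100 bp alone. Among the alternative values, 44 moved beyond their counting interval or by over 1.5 times and 34 did not; the cause was not tested. Values are given with Flk1-positive-only first. Equal numbers gave 7517 Flk1-positive-only summits, gene-end shares of 28.4% and 21.2%, day 0 shares of 75.7% and 40.7%, an induced share of 78.2%, and more Flk1-positive-only summits at 41.3% of all genes, 61.3% of endothelial surface, 52.4% of endothelial factor and 55.3% of fibroblast genes. A score of at least 10 gave 7899 and 1134 summits, gene-end shares of 50.5% and 12.0%, day 0 shares of 88.4% and 63.2%, an induced share of 61.7% for unsorted-only summits, and 79.8% of all and 96.4% of fibroblast genes. Matching within 100 bp gave 8871 unsorted-only summits, gene-end shares of 31.1% and 32.4%, day 0 shares of 49.0% and 26.9%, an induced share of 62.5% for Flk1-positive-only summits and 68.5% of all genes. Matching within 500 bp gave 2933 unsorted-only summits, gene-end shares of 24.4% and 7.47%, day 0 shares of 74.4% and 33.3%, an induced share of 81.9% for Flk1-positive-only summits and 68.5% of all genes. One summit per peak gave a gene-end share of 23.3% for Flk1-positive-only summits, day 0 shares of 69.5% and 39.3%, an induced share of 78.4% for Flk1-positive-only summits and 66.4% of all genes. Gene ends within 500 bp gave 20.5% and 14.1%, a gene window of 10 kb 56.7% of all, 95.5% of endothelial surface and 65.2% of endothelial factor genes, and the removal of dense bins a gene-end share of 19.8% for unsorted-only summits. Low scores, list length and 1 list a group limit each comparison.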

Other observations

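The X chromosome had the lowest ratio of Flk1-positive-only to unsorted-only summits of the 20 chromosomes, 519 to 317 or 1.64, and 0.593 at equal numbers. Chromosome 2 had the highest, 1218 to 260 or 4.68, and 1.54 at equal numbers.

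Sites found in none of the 6 other lists made up 13.3% of Flk1-positive-only summits (12.8 to 13.9), 27.9% of unsorted-only summits (26.7 to 29.2) and 2.32% of shared summits. At equal numbers the shares were 7.04% of Flk1-positive-only and 21.8% of unsorted-only summits, and with matching within 100 bp 22.8% of Flk1-positive-only and 35.9% of unsorted-only summits. At skeletal muscle genes 7 of 15 Flk1-positive-only summits were absent from uninduced fibroblasts (46.7%, 21.3 to 73.4), an interval that includes the 33.2% of the whole class, and 1 of 3 at equal numbers. The overlapping 50 kb windows of Myf5 and Myf6, neighbouring regulators of muscle precursors, held a Flk1-positive-only summit that was absent from uninduced fibroblasts and uninduced embryoid bodies and present in induced ones.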
